A study of Mus musculus with 4 samples.

Results

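The SIRP, CD300 and Siglec receptors are immunoglobulin-like proteins on the surface of myeloid cells, and 10 of their genes were examined here: Sirpa, Sirpb1a, Cd300a, Cd300c, Cd300lb, Cd300lf, Siglece, Siglecg and Siglec1, together with Cd47, which encodes the ligand of SIRP alpha. They were picked by name, with earlier results of these data known. A gene was read from the probe set that carried its symbol alone and, where there were several such sets, from the set with the highest mean. This gave 9 of the 10 genes, out of 19938 genes in the series. Sirpb1a had 0 probe sets of its own, since the 4 sets that list it also list its near-copies Sirpb1b and Sirpb1c, so no value is given for it.

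Many of these receptors set thresholds for phagocytes and dendritic cells (DCs). Inhibitory members carry tyrosine motifs in their cytoplasmic tail that recruit the phosphatases encoded by Ptpn6 and Ptpn11, whereas activating members have short tails and pair with adaptors such as those encoded by Tyrobp and Fcer1g. SIRP alpha recognises CD47 on neighbouring cells and restrains their uptake, several CD300 proteins recognise lipids exposed on dying cells, and Siglecs bind sialic acid on glycans. In the mouse, SIRP alpha marks the conventional DCs that resemble the splenic CD4 lineage and is low on those that resemble the CD8 lineage.

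The cells were DCs that C57BL/6 marrow had yielded after 8 days in 200 ng/ml Flt3 ligand, which was renewed with fresh medium every 3 days. They carried either intact miR-142 (miR-142+/+, wt) or no miR-142 (miR-142-/-, ko). B220-negative, CD11c-positive cells were sorted into CD4-equivalent DCs (CD172-positive, CD24-low, CD11b-positive) and CD8-equivalent DCs (CD172-negative, CD24-positive, CD11b-low), and each of the 4 groups was measured on 1 Affymetrix array. The labels give neither the sex or age of the animals, nor the number of mice or cultures behind an array, nor which part of the Mir142 locus was removed; the deletion is not said to be restricted to DCs. The question was what changes in each subset without miR-142, and the design also lets the subsets be compared within a genotype.

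All values are log2 summaries from RMA (robust multi-array average). Values of different genes depend on their probes and are not set against each other. The floor used here, 5.68, is the median over probe sets with 1 gene symbol, and 9774 to 9821 genes reached it on an array. A difference between 2 single arrays has no replicate check and no p-value. Means over both subsets, or over both genotypes, were tested with limma on an additive model over 10239 genes. In it the other factor supplies the only replication and 1 residual degree of freedom. That residual is the gap between the 2 ko minus wt differences (the interaction), and limma shrinks its variance towards that of all genes. So a genotype difference that is unlike in the subsets widens the standard error (SE), to 0.27 for Cd300c against 0.12 for Cd47. A p-value reflects spread among these arrays alone, which may be technical or a difference between the subsets in the genotype effect. Precision is limited throughout by having 4 arrays. In sorted bulk samples such as these, fewer cells of a type and less RNA per cell cannot be told apart.

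Both mature strands of the deleted microRNA are shown because every ko array lacks them, with the seed (bases 2 to 8) in capitals, from RefSeq (GRCm38.p6, chromosome 11).
mmu-miR-142a-5p: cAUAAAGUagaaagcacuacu
mmu-miR-142a-3p: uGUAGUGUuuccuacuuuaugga
The Mir142 probe set read 10.37 in wt CD4-equivalent, 9.87 in wt CD8-equivalent, 4.92 in ko CD4-equivalent and 4.79 in ko CD8-equivalent DCs, so both ko arrays lay below the floor. Since the labels do not name the removed part of the locus, this checks the genotype labels only if the probes lie in it. Of the genes of the sort markers, Itgam (CD11b) read 12.02 and 11.76 in wt and ko CD4-equivalent DCs against 10.01 and 9.89 in CD8-equivalent DCs. Cd24a read 10.98 and 11.98 against 12.76 and 12.72. Both followed the gates in each genotype, with a narrower gap for Cd24a in ko.

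Sirpa, Cd300lb and Siglece were high in CD4-equivalent DCs and low in their CD8-equivalent counterparts, with or without miR-142, whereas no receptor gene passed the test between the genotypes. For Cd300lb (activating) the CD8-equivalent level was 4.01-fold lower in wt and 3.11-fold lower in ko, and for Siglece (inhibitory), whose CD8-equivalent values lay below the floor, it was at least 2.04-fold and 2.94-fold lower, with the floor in place of those values. Cd47 and Cd300lf stayed within 0.24 and 0.32 on the log2 scale across the 4 arrays. Cd300c and Siglecg had an uneven wt CD4-equivalent array, the lowest of the 4 for Cd300c and the highest for Siglecg.

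**Figure D1:**
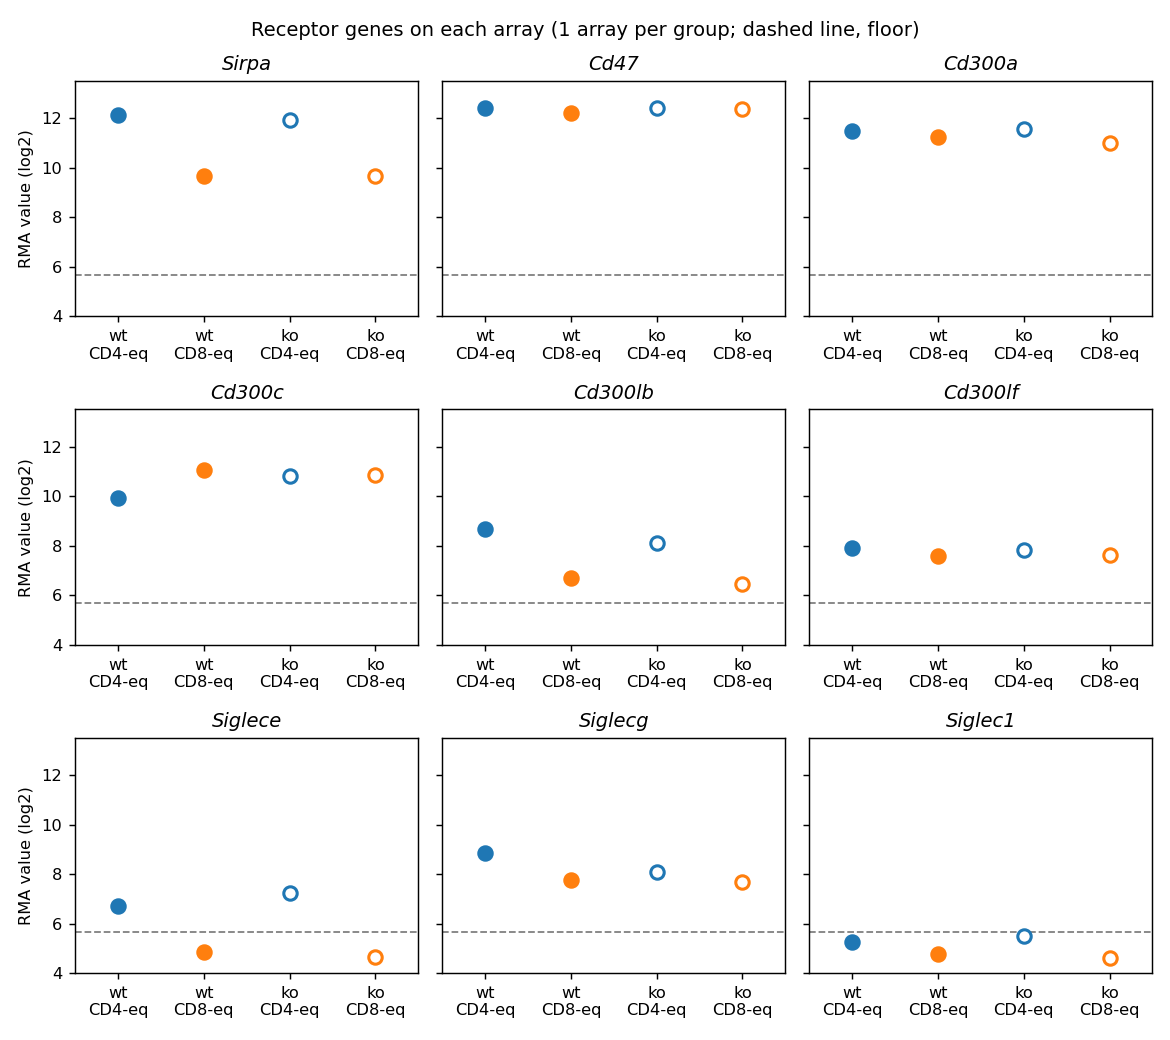
RMA values (log2) of the 9 measured receptor genes on each array, 1 point per array, with blue for CD4-equivalent, orange for CD8-equivalent, filled for wt and open for ko. The dashed line is the floor of 5.68. Sirpa, Cd300lb and Siglece separate by colour, and Siglec1 stays below the floor on every array.

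Sirpa encodes SIRP alpha, or CD172a, the inhibitory receptor for CD47. It read 12.11 in wt and 11.92 in ko CD4-equivalent DCs and 9.69 in wt and 9.67 in ko CD8-equivalent DCs. The order was therefore set by the subset, and the arrays of the same subset differed by 0.19 and 0.01. The subsets differed by -2.42 in wt and -2.25 in ko (CD8-equivalent minus CD4-equivalent, log2), or 5.36-fold and 4.75-fold. CD172 was one of the sort markers, so this difference describes the gate and is given without a test. The mean genotype difference of Sirpa (ko minus wt) was -0.10 ± 0.12 (SE), with a 95% interval from -0.42 to 0.21 and an adjusted p of 0.75 in limma.

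Cd47, the widely expressed ligand that tells phagocytes to spare a cell, read 12.39 in wt CD4-equivalent, 12.19 in wt CD8-equivalent, 12.43 in ko CD4-equivalent and 12.36 in ko CD8-equivalent DCs. These 4 values span 0.24, the narrowest range of the measured members. The mean subset difference was -0.14 ± 0.12 (SE, interval -0.44 to 0.17, adjusted p = 0.47 in limma), and the mean genotype difference was 0.10 ± 0.12 (interval -0.21 to 0.41, adjusted p = 0.74). A second Cd47 probe set, with a lower mean, read 11.80, 11.61, 11.84 and 11.81 in the same order of groups. Both sets had the lowest value in wt CD8-equivalent DCs. The probe set used is annotated only to a cDNA clone, and the second also to the RefSeq transcript.

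Cd300lb encodes an activating CD300 receptor that signals through the adaptor encoded by Tyrobp. It read 8.69 in wt and 8.11 in ko CD4-equivalent DCs, against 6.69 and 6.47 in CD8-equivalent DCs. Both CD4-equivalent values stood above both CD8-equivalent values, and in each subset the ko value was the lower one. The subset difference was -2.01 in wt and -1.64 in ko, with a mean of -1.82 ± 0.14 (SE, adjusted p = 0.0060 in limma). The adjusted p was 0.055 when genotype was left out of the model. The genotype difference was -0.58 among CD4-equivalent and -0.21 among CD8-equivalent DCs, with a mean of -0.40 ± 0.14 (interval -0.76 to -0.03). Its unadjusted p was 0.039 and its adjusted p 0.29, which does not pass.

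Cd300c, a CD300 receptor whose gene lies next to Cd300lb, had the opposite subset difference in wt. It read 9.92 in wt CD4-equivalent DCs and 11.06 in wt CD8-equivalent, 10.82 in ko CD4-equivalent and 10.87 in ko CD8-equivalent DCs. The wt CD4-equivalent array was thus the lowest, and the other 3 lay within 0.24 of each other. CD8-equivalent DCs of wt were 2.20-fold higher than CD4-equivalent DCs, while in ko the difference was 0.04. Without miR-142 the level in CD4-equivalent DCs was 1.87-fold higher (0.90), against -0.19 in CD8-equivalent DCs. Neither mean passed limma's test, with 0.36 ± 0.27 (SE, interval -0.34 to 1.05, adjusted p = 0.60) for genotype and 0.59 ± 0.27 (interval -0.11 to 1.29, adjusted p = 0.20) for subset.

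Cd300a and Cd300lf are inhibitory members. Cd300a, which recognises phosphatidylserine and phosphatidylethanolamine, read 11.48 in wt CD4-equivalent, 11.23 in wt CD8-equivalent, 11.57 in ko CD4-equivalent and 10.99 in ko CD8-equivalent DCs. Both CD8-equivalent values lay below both CD4-equivalent values, by a mean of -0.42 ± 0.14 (SE, interval -0.77 to -0.07), and the adjusted p was 0.11 in limma (0.029 with a trended and robust prior, and 0.077 to 0.17 under the other alternatives). Cd300lf, the receptor that mouse norovirus uses to enter cells, read 7.91, 7.59, 7.82 and 7.62 in that order of groups. Its mean subset difference of -0.26 ± 0.12 (interval -0.57 to 0.05, adjusted p = 0.20) did not pass. Their genotype means were -0.08 ± 0.14 (interval -0.43 to 0.27) for Cd300a and -0.03 ± 0.12 (interval -0.34 to 0.27) for Cd300lf, with adjusted p-values of 0.84 and 0.93.

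Siglece encodes an inhibitory Siglec of neutrophils, monocytes and macrophages. It read 6.71 in wt and 7.23 in ko CD4-equivalent DCs, and 4.87 in wt and 4.66 in ko CD8-equivalent DCs. Only the CD4-equivalent values reached the floor. Against the floor itself, the CD8-equivalent level was at least 2.04-fold lower in wt and at least 2.94-fold lower in ko, and the values as measured differed by -1.84 and -2.57. Siglece entered limma's test only through the subset in which it is high, so its mean of -2.21 ± 0.20 (SE) is a description, with no test. The genotype difference was 0.52 in CD4-equivalent DCs, and that of CD8-equivalent DCs lay below the floor on both arrays and is not read. The mean genotype difference in limma, which includes those arrays, was 0.16 ± 0.20 (adjusted p = 0.76).

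Siglecg encodes an inhibitory Siglec known from B cells and DCs. It read 8.87 in wt CD4-equivalent DCs, 8.11 in ko CD4-equivalent DCs, 7.76 in wt CD8-equivalent DCs and 7.68 in ko CD8-equivalent DCs. The wt CD4-equivalent array stood above the other 3, which lay within 0.43 of each other. The subset difference was -1.11 in wt (2.16-fold lower in CD8-equivalent DCs) and -0.43 in ko, with a mean of -0.77 ± 0.19 (SE, interval -1.26 to -0.27, adjusted p = 0.061 in limma). This narrowly missed the threshold and passed it with the floor required on all arrays (adjusted p = 0.034), with a trended and robust prior (0.029) and after cyclic loess (0.041). It was 0.12 with no floor and 0.19 without genotype in the model. The genotype difference was -0.77 among CD4-equivalent and -0.08 among CD8-equivalent DCs, with a mean of -0.42 ± 0.19 (interval -0.92 to 0.07, adjusted p = 0.37).

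Siglec1 encodes sialoadhesin, a long Siglec of tissue macrophages that lacks the inhibitory motif. It read 5.25, 4.79, 5.51 and 4.63 in wt CD4-equivalent, wt CD8-equivalent, ko CD4-equivalent and ko CD8-equivalent DCs. All 4 values lay below the floor, so its differences are not read and it did not enter the test.

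Setting Sirpa aside, 6 members reached the floor on all 4 arrays and so were measured on both sides. Of these, 1 (Cd300lb) fell in CD8-equivalent DCs and 0 rose, where limma called 5.62% lower and 7.68% higher of the 9381 genes that reached the floor on all arrays (6.35% and 7.98% of all genes tested). The median subset difference of the 6 was -0.34, against 0.08 over those genes. This restriction leaves out Siglece. At 2-fold or more, with Siglece included, 3 of 7 (Cd300lb, Siglece and Siglecg) were lower and 1 (Cd300c) was higher in wt CD8-equivalent DCs, beside 3.14% and 2.1% of all genes compared. Siglece could count only as lower in either genotype, since its CD8-equivalent values lay below the floor. Without it, Cd300lb and Siglecg were lower and Cd300c higher in wt, and Cd300lb alone was lower in ko. In ko, 2 of the 7 (Cd300lb and Siglece) were lower and 0 higher, beside 3.9% and 3.39% of all genes, or 46.5% of the differing genes higher and 34.6% after cyclic loess, which moved the median of all genes from 0.11 to 0.01.

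**Figure D2:**
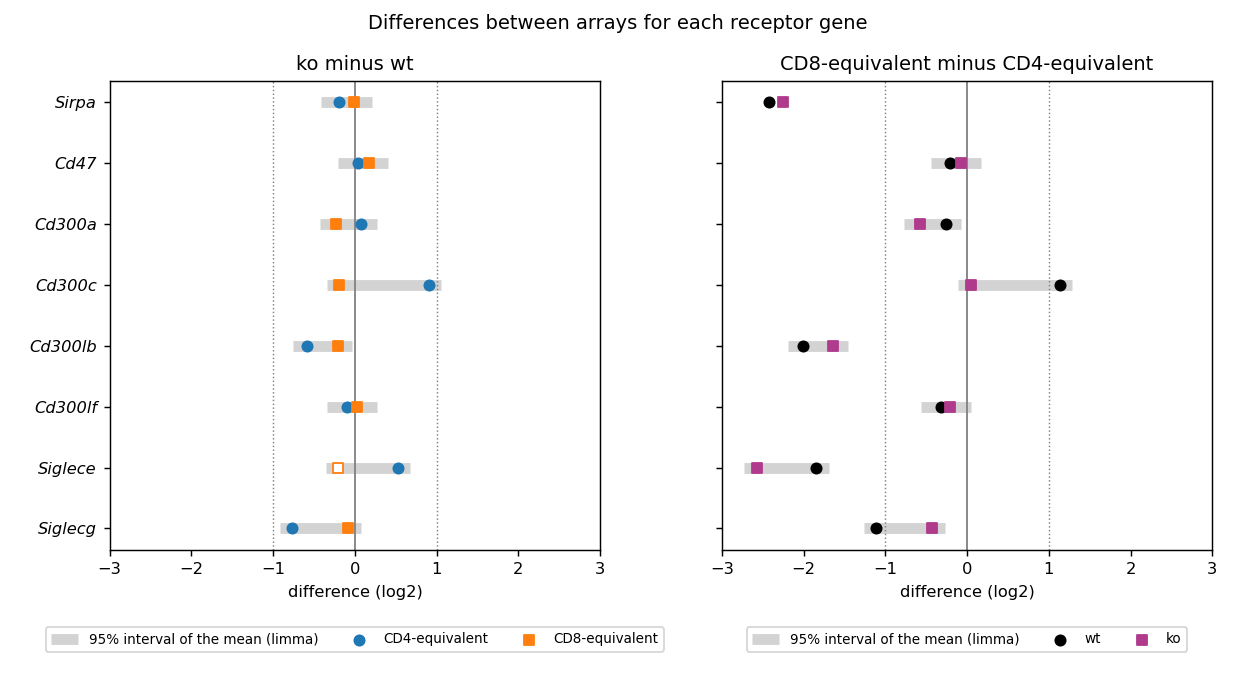
Differences in log2 for the 8 receptor genes that reached the floor, with ko minus wt on the left and CD8-equivalent minus CD4-equivalent on the right; each marker is a difference of 2 arrays, the open square lies below the floor on both arrays, and grey bars are limma's 95% intervals of the mean. Dotted lines mark 2-fold. The genotype markers all lie within 2-fold. In the subset panel both markers of Sirpa, Cd300lb and Siglece lie beyond it on the lower side, as does the wt marker of Siglecg. The wt marker of Cd300c lies beyond it on the higher side. The CD8-equivalent values of Siglece lay below the floor, and no interval is drawn for the gate gene Sirpa in that panel.

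Between the genotypes, 0 of 8 tested members passed limma's adjusted threshold, beside 0.166% of all genes tested. At an unadjusted p under 0.05 there was 1 (Cd300lb), beside 15.6% of all genes. The median genotype difference of the members was -0.06, against -0.04 over all genes tested. At 2-fold or more, 0 of 8 members compared in CD4-equivalent DCs were higher or lower in ko, beside 1.39% higher and 0.952% lower of all genes (59.4% of those differing were higher, and 69.3% after cyclic loess), and 0 of 7 in CD8-equivalent DCs, beside 1.14% and 1%. The intervals leave room for genotype differences of up to about 2-fold for Cd300c (upper bound 1.05) and Siglecg (lower bound -0.92).

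**Figure D3:**
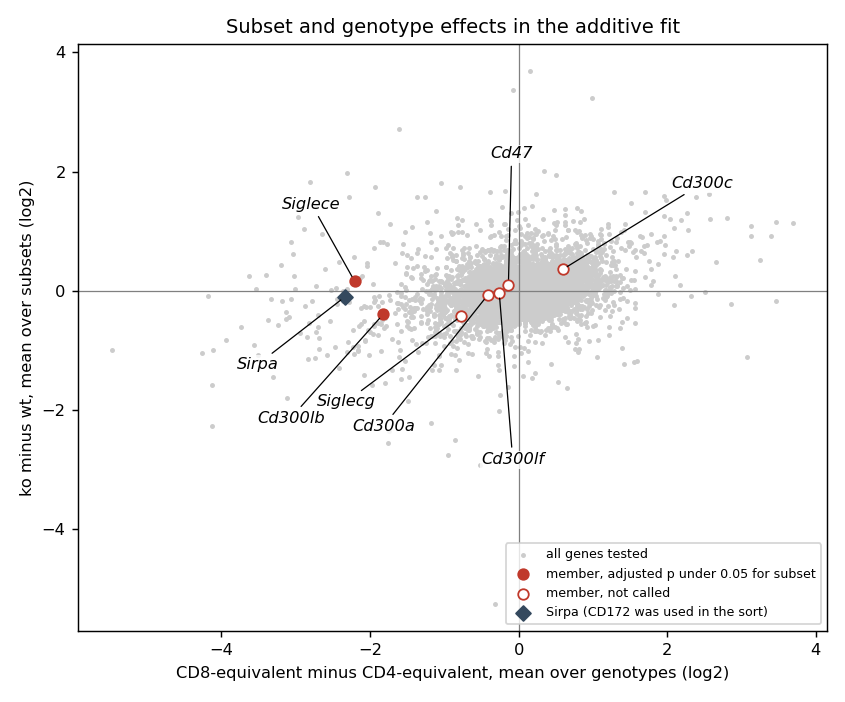
Mean subset difference (horizontal axis, log2) against mean genotype difference (vertical axis, log2) from the additive limma fit, with 1 grey point per gene tested and the 8 tested receptor genes marked. Cd300lb (-1.82) and Siglece (-2.21) lie far to the left, next to the gate gene Sirpa (Siglece entered the fit only through its CD4-equivalent arrays), and all 8 lie between -0.42 and 0.36 on the vertical axis.

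Markers of other cells also differed between the sorted groups. Of 12 neutrophil markers, 3 reached the floor in wt CD4-equivalent, 0 in wt CD8-equivalent, 10 in ko CD4-equivalent and 1 in ko CD8-equivalent DCs, and their summed linear signal was 712, 372, 4014 and 523. Of 12 measured monocyte and macrophage markers, 10, 10, 10 and 6 reached the floor in the same order, with summed signals of 24511, 15390, 23793 and 10037. Such sums rest mostly on the genes with the highest values, here Lyz2 (13.24, 12.75, 13.17 and 11.31) and Ccr2 (12.78, 12.53, 12.81 and 12.46). Of 9 measured plasmacytoid DC markers, 7, 9, 9 and 9 reached the floor, with sums of 4544, 9450, 7544 and 10791, and 0 of 5 T and NK cell markers reached it on any array. Of 10 markers of CD4-equivalent (cDC2) cells, 9, 8, 8 and 7 reached the floor in the same order of groups, with sums of 19391, 5047, 18472 and 4459. The neutrophil, macrophage and cDC2 sums were higher in CD4-equivalent than in CD8-equivalent DCs of both genotypes, as were Cd300lb and Siglece. The cDC2 markers include Itgam, a gene of the sort markers, so the gate set part of that sum's difference. The neutrophil sum was highest in ko CD4-equivalent DCs, as was Siglece. In wt the neutrophil sums were 712 and 372, the second from markers all below the floor, and the macrophage sums were 24511 and 15390. The wt subset differences were -1.84 for Siglece and -2.01 for Cd300lb. The part of the neutrophil, macrophage and cDC2 markers in these differences was not tested. Of 10 markers of CD8-equivalent (cDC1) cells, 8, 9, 8 and 8 reached the floor, and their summed signal was 10514 in wt CD4-equivalent, 27215 in wt CD8-equivalent, 18488 in ko CD4-equivalent and 26140 in ko CD8-equivalent DCs. They include Cd24a, also a gene of the sort markers. The cDC1 and plasmacytoid DC sums were both lowest on the wt CD4-equivalent array, as was Cd300c. The part of either in the Cd300c values was not tested.

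The Cd300 genes lie side by side on chromosome 11, and the cluster was uneven. In the order of RefSeq, 11 Cd300 genes run from Cd300a to Cd300lf with 1 other coding gene between them, and 7 had a single-gene probe set. Of these 7, Cd300lb and, named here for their position, Cd300ld and Cd300c2 were called lower in CD8-equivalent DCs and 0 higher. Over all genes tested, 6.35% were called lower and 7.98% higher. Cd300e also passed the threshold, but it entered the fit only through its CD4-equivalent values and is not counted as a call. Cd300ld, an activating relative, read 8.69 in wt CD4-equivalent, 6.51 in wt CD8-equivalent and 7.19 in ko CD4-equivalent DCs. In ko CD8-equivalent DCs it read 5.19, below the floor, so the size of its differences from that array is uncertain. For the same reason it was not tested with the floor required on all arrays. It was the cluster's gene with the largest mean genotype difference, lower in ko by 1.51 and 1.32 in the subsets (mean -1.41 ± 0.12 (SE)), but limma's adjusted p of 0.050 lay just above the threshold. It was 0.010 with a trended and robust prior, 0.12 with no floor, 0.061 after cyclic loess and 1 without subset in the model. Its subset mean was -2.09 ± 0.12 (adjusted p = 0.0033). Cd300c2 (mean -1.58 ± 0.21, adjusted p = 0.016) was also lower in CD8-equivalent DCs. Cd300e (mean -1.41 ± 0.16) did not reach the floor in CD8-equivalent DCs (5.34 and 5.29). It passed the filter only through its CD4-equivalent values (6.99 and 6.46), so it could pass the threshold only as lower. Cd300a and Cd300lf at the ends of the row, and Cd300c within it, were not called. When genotype was left out of the model, the adjusted p for subset was 0.16 for Cd300ld and 0.063 for Cd300c2. Genes of this cluster are close copies of one another, so probes may share signal, and the 4 Cd300ld copies without a probe set of their own were not read.

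**Figure D4:**
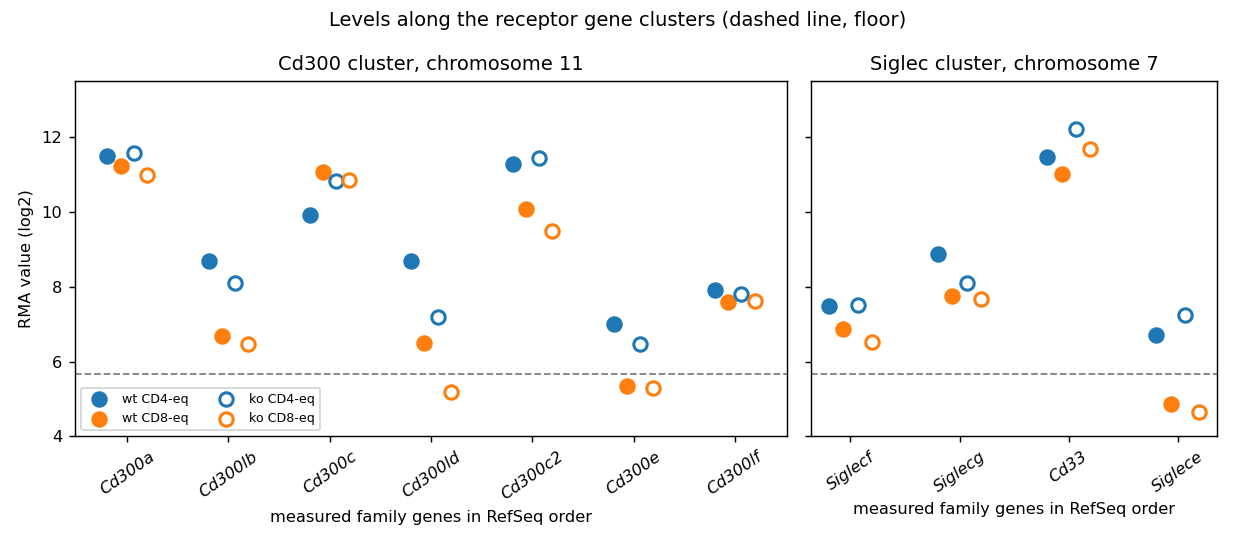
RMA values (log2) of the measured Cd300 genes of chromosome 11 (left) and Siglec genes of chromosome 7 (right) in RefSeq order, 1 point per array, blue for CD4-equivalent, orange for CD8-equivalent, filled for wt and open for ko; the dashed line is the floor. Cd300lb, Cd300ld, Cd300c2 and Cd300e drop in the CD8-equivalent arrays, and Cd300a, Cd300c and Cd300lf between and beside them were not called.

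The Siglec genes of chromosome 7 lie further apart, with 17 coding genes from Siglecf to Siglece. Of the 4 family genes there, Siglecf was called lower in CD8-equivalent DCs by -0.79 ± 0.14 (SE, adjusted p = 0.030 in limma, 0.058 with no floor and 0.092 without genotype in the model). Over all genes tested, 6.35% were called lower and 7.98% higher. Siglece also passed the threshold, but it entered the fit only through its CD4-equivalent values and is not counted as a call. Cd33, a Siglec of myeloid cells named here for its position, read 11.47 in wt and 12.21 in ko CD4-equivalent DCs, and 11.01 in wt and 11.69 in ko CD8-equivalent DCs. Both ko values lay above both wt values, by a mean of 0.70. Its adjusted p for genotype was 0.091, but 0.046 with the floor required on all arrays and 0.010 with a trended and robust prior. It was 0.13 with no floor, 0.092 after cyclic loess and 1 without subset in the model.

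Windows of 250 bases upstream of the start site are shown for Cd300lb and Siglece, which were low in CD8-equivalent DCs, and for Cd300c, the neighbour of Cd300lb with the opposite difference in wt. They come from RefSeq (GRCm38.p6), which held a window for 8 of the 10 members. Capitals mark matches, on either strand, to 6 motifs. The core of the site for PU.1, an ETS-family factor of myeloid cells, was searched as GAGGAA. The Runx site, bound by a factor family active in blood cells, was searched as TGTGGT. The TATA box, where the basal transcription machinery can bind, was searched as TATAAA. The other motifs have a gap, namely the repeat bound by interferon regulatory factors (IRF; GAAA, a gap of 2 bases, then GAAA), the ETS-IRF composite (GGAA, a gap of 2 bases, then GAAA) and the AP-1 site (TGA, a gap of 1 base, then TCA). The motifs were chosen with the sequences in view, and 0 of the matches in these windows overlap another.
Cd300lb upstream window (chr11:114934372-114934621, minus strand): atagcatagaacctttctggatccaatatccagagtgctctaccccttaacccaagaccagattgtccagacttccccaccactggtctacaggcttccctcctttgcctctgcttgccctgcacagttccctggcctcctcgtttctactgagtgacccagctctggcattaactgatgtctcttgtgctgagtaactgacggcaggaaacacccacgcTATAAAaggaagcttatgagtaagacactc
Siglece upstream window (chr7:43660162-43660411, minus strand): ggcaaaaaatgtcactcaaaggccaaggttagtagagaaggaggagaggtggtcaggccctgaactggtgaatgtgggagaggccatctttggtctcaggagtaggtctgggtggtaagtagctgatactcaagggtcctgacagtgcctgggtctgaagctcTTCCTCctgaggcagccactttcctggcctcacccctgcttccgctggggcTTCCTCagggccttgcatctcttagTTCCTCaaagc
Cd300c upstream window (chr11:114960508-114960757, minus strand): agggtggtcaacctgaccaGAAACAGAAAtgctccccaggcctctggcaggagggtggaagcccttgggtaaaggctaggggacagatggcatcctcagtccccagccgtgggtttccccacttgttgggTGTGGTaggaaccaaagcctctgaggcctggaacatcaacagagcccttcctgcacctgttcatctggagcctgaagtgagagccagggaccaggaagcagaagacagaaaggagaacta
The Siglece window held GAGGAA 3 times, as its reverse complement TTCCTC, and 23.3% of all 32851 windows of this length held it at least once. The Cd300lb window held TATAAA, which begins 30 bases before the start site and was present in 12.4% of all windows. The Cd300c window held the IRF repeat (2.98% of all windows) and TGTGGT (14.0%). Over all 8 members with a window, GAGGAA was found in 4 (Cd300a, Cd300lf, Siglece and Siglecg), though not in every window of Siglecg. TATAAA was found in 2 (Cd300lb and Cd300lf), the IRF repeat in 2 (Cd300c and Sirpb1a) and TGTGGT in 1 (Cd300c). The AP-1 site and the ETS-IRF composite were found in 0, where 6.75% and 2.30% of all windows held them. These are matches of letters only.

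Among 24 measured relatives of the members (other Cd300 and Siglec genes, and the paired receptors of the Pir, Pilr, Lilr, Lair and Trem groups), 17 were tested. For subset, 9 were called lower in CD8-equivalent DCs and 1 higher (Treml2, mean 1.33 ± 0.20 (SE), adjusted p = 0.022 in limma), and for genotype 0 were called. Of the 9, Cd300e and Trem3 did not reach the floor in CD8-equivalent DCs and so were tested only because of their CD4-equivalent values. They could pass only as lower and do not count beside the shares of all genes. All genes tested were called lower in 6.35%, higher in 7.98% and for genotype in 0.166%. Beside Cd300ld, the widest ranges were those of the paralogs Lilr4b and Lilrb4a, the second of which encodes an inhibitory receptor. Lilr4b read 11.27 in wt CD4-equivalent, 9.89 in wt CD8-equivalent, 11.00 in ko CD4-equivalent and 7.54 in ko CD8-equivalent DCs, with the ko CD8-equivalent array far below the rest. Lilrb4a read 11.74, 10.29, 11.53 and 8.84. Their subset means were -2.42 ± 0.48 (SE, adjusted p = 0.036) and -2.07 ± 0.30 (adjusted p = 0.020), which were 0.25 and 0.082 with a trended and robust prior and 0.097 and 0.057 with no floor, and near-identical sequence makes their split uncertain. Pilrb1, an activating receptor, stood at 7.15 in ko CD4-equivalent DCs and at 5.76, 5.15 and 5.02 in wt CD4-equivalent, wt CD8-equivalent and ko CD8-equivalent DCs, and it was not called.

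Of 17 tested genes for signalling partners of the receptors, 3 were called lower in CD8-equivalent DCs (6.35% of all genes tested), 0 higher (7.98%), and 0 for genotype (0.166%). They were Fyb, an adaptor for integrin activation (-1.12 ± 0.12 (SE), adjusted p = 0.011), Sh2d1b1, an adaptor of SLAM receptors (-1.14 ± 0.25, adjusted p = 0.045), and Syk, the kinase that binds activated adaptors (-0.69 ± 0.12, adjusted p = 0.028). Without genotype in the model these were 0.065, 0.33 and 0.075, and for Sh2d1b1 0.11 with no floor. Sh2d1b1 also read 9.42 in wt against 7.68 in ko CD4-equivalent DCs and 7.78 against 7.03 in CD8-equivalent DCs, a genotype mean of -1.25 that did not pass (adjusted p = 0.13). Of the adaptor genes, Tyrobp ran from 12.84 to 13.10 and Fcer1g from 12.97 to 13.14 over the arrays. Ptpn6, which encodes the phosphatase SHP-1, ran from 11.49 to 11.83.

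Of 19 tested genes for ligands and sialic acid metabolism, 1 was called higher and 2 lower in CD8-equivalent DCs, and 0 for genotype. With 7.98% of all genes tested higher and 6.35% lower, these subset counts are near the background and are no result about the list. Cmah, which turns one form of sialic acid into the glycolyl form that some Siglecs prefer, read 5.46 in wt CD4-equivalent, 8.20 in wt CD8-equivalent, 7.26 in ko CD4-equivalent and 9.63 in ko CD8-equivalent DCs. It was higher in CD8-equivalent DCs by a mean of 2.56 ± 0.14 (SE, adjusted p = 0.0029 in limma, and 0.15 without genotype in the model). Its ko values were higher by 1.80 and 1.43, with a mean of 1.62 ± 0.14 and an adjusted p of 0.050 that lay just above the threshold (0.0070 with a trended and robust prior, 0.12 with no floor, 0.064 after cyclic loess and 1 without subset in the model). The wt CD4-equivalent value lay below the floor. St6gal1, a sialyltransferase that makes the ligand of Cd22, read 9.14, 6.68, 8.03 and 6.81 in the same order and was lower in CD8-equivalent DCs by a mean of -1.84 ± 0.30 (adjusted p = 0.024, and 0.069 with no floor). St3gal1, a second sialyltransferase, was also called lower (-0.59 ± 0.12, adjusted p = 0.036), but its second probe set lay below the floor, and the mean of both sets was not called (-0.30). Thbs1, which encodes the CD47 ligand thrombospondin, read 6.82, 6.26, 6.99 and 8.08 and was highest in ko CD8-equivalent DCs. It was 3.54-fold higher there than in wt, with a mean over subsets that did not pass (adjusted p = 0.32).

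The genes whose values ran most like those of the 3 most variable members were found by the root mean square distance between values centred over the 4 arrays, among 1418 genes with a range of at least 1. For Siglece they were Cd40 (distance 0.08), Ifi27l2a (0.11) and Fosl2 (0.14). For Sirpa they were Abca9 (0.06), Tmem71 (0.11) and St8sia6 (0.11). For Cd300lb they were Pstpip2 (0.05), Cxcl10 (0.07) and Oas3 (0.09). Pstpip2, for example, read 8.51, 6.60, 8.05 and 6.37 in wt CD4-equivalent, wt CD8-equivalent, ko CD4-equivalent and ko CD8-equivalent DCs. With 4 arrays such likeness is a description only.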

How the data were processed

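Mouse DC RNA was hybridised to 4 arrays, 1 per group. The deposited values are log2 summaries, 1 for each of 35399 probe sets and array, and RMA and Partek are named, without versions, per the submitters' processing notes. No source states the log base; values between 3.52 and 14.3 fit base 2. Detection calls and scanner values were not used here. RMA compresses low values, so differences near the floor are understated.

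Of the probe sets, 21789 carry 1 gene symbol in the 2016 platform annotation, 1621 several and 11989 are unnamed here. Of those with 1 symbol, 21698 matched RefSeq by gene ID, and 0 symbols changed. The set with the highest mean stood for a gene.

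Genes reaching the floor on any array were fitted with limma 3.58.1 in R 4.3.3 (lmFit, eBayes; genotype plus subset; 3.98 prior degrees of freedom; two-sided; Benjamini-Hochberg over 10239 genes; threshold 0.05). The code was tested on simulated data. Pairwise differences and the interaction had no test. Differences of 1 or more on the log2 scale were counted when either array reached the floor.

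The members, gene lists and markers were chosen with earlier results of these data known. All members are named. Genes of the pathway lists were named if called or at least 2-fold different, up to 4 per list, largest first. Others are named for position, as adaptors, for failing the floor or as the only relative called higher, chosen after their values were seen. Alternatives were no floor, the floor on all arrays, a trended and robust prior, cyclic loess, the mean of a gene's probe sets and leaving out the other factor.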

Additional observations from a re-analysis of the deposited data

Results flagged for a closer look

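The genotype differences of 3 members had opposite signs in the subsets, each seen on 1 pair of arrays per subset, and the difference between subsets was not tested. For Cd300c, ko minus wt gave 0.90 among CD4-equivalent DCs but -0.19 among CD8-equivalent DCs, a gap of -1.09 (CD8-equivalent less CD4-equivalent). For Cd300a it was 0.08 and -0.24, a gap of -0.32. For Cd300lf it was -0.09 and 0.02, a gap of 0.11, which became -0.06 after cyclic loess.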

How the results depend on the processing

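Over all genes, limma's genotype calls numbered 17, but 3 with no floor, 184 with the floor required on all arrays, 307 with a trended and robust prior and 0 without subset in the model. Subset calls numbered 1467, but 946 with no floor and 99 without genotype in the model. At 2-fold or more, 234 genes differed between ko and wt CD4-equivalent DCs and 147 with the floor on all arrays. Among the receptor genes, 0 were called for genotype under any of the 6 alternatives. For subset, 3 passed the threshold: Cd300lb, Siglece, whose floor filter favours a call, and Sirpa, whose difference the sort set. There were 5 with a trended and robust prior, which added Cd300a and Siglecg, 4 after cyclic loess, which added Siglecg, and 2 (Sirpa and Siglece) without genotype in the model. The floor on all arrays also gave 3, but with Siglecg in place of Siglece, which was then not tested. Cd300lb passed in 5 of 6 alternatives (adjusted p 0.00085 to 0.055). Tiny genotype means changed sign after cyclic loess: Cd300lf from -0.03 to 0.0067 and Syk from -0.04 to 0.0033. Leaving out an array leaves the additive model no residual degree of freedom, so no such test was run. No paired analysis was possible because each group holds 1 array and the labels carry no replicate numbers.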
